A study of Drosophila melanogaster with 4 samples.

Results

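The genes of synaptic vesicle release were followed on 4 arrays of RNA labelled as from heads of male Drosophila melanogaster fasted for 24 h. They were taken by gene symbol from the array's probe annotation, by a rule that uses no measured value, although the list was drawn up with earlier results of these arrays known. Of 10 listed genes, 8 had a probe set there, among 11981 genes in all: nSyb, Snap25, Rop, cpx, unc-13, Rab3, brp and VGlut. No probe set carried the symbol Syt1 or Syx1A in the annotation used, so the calcium sensor of release and the plasma membrane syntaxin were not analysed here. The 8 genes had 13 probe sets, and 3 of them (brp, cpx and VGlut) had more than 1.

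The arrays, each the only one of its group, held a TORC mutant with its wild-type (WT) control and a TORC neuronal rescue with its rescue control as the labels name them. TORC is the CREB coactivator now named Crtc. The labels give no allele for the mutant, no genotype for the rescue control, no driver for the neuronal rescue, and no age or number of flies. All the flies were fasted, and no fed group was analysed here. With single arrays no replicate error exists, so every ratio compares one RNA sample with another and none has a p-value.

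Neurons release transmitter when vesicles fuse with the membrane at the active zone. The vesicle protein synaptobrevin and the membrane proteins SNAP-25 and syntaxin, together called SNAREs, zip into a bundle that drives fusion. Other proteins place vesicles at calcium channels, prime them, hold them until calcium enters and fill them with transmitter. Because the machinery is shared by most neurons, its transcripts also reflect how much neuronal RNA a head sample holds, and in such bulk RNA fewer neurons and less RNA per neuron cannot be told apart.

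Signals are given as deposited, on a linear scale, and are compared between arrays only within a probe set. A signal below 13.85, the floor, was set to the floor before a ratio was taken, and a ratio with a floored signal is a lower bound. All 8 genes lay above the floor on all 4 arrays by their brightest probe set, as 7493 genes did. A gene was called at a 2-fold difference or more. As the only spread that the arrays themselves give, the log2 ratios of probe sets of the same gene had a robust SD of 0.35 per probe set for the mutant over the WT control (480 genes) and 0.35 for the neuronal rescue over the rescue control (418 genes). That spread holds neither animal nor RNA preparation error.

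Crtc, the targeted gene, gave signals of 203 (WT control) and 3.8 (mutant), with 6.7 (rescue control) and 37.4 (neuronal rescue). It was below the floor in the rescue control as well as in the mutant, and at least 2.70-fold higher in the neuronal rescue than in either. All 16 genes of the list called pan-neuronal, which include elav and futsch, lay above the floor on every array. The list also holds ChAT and Gad1, which mark acetylcholine and GABA neurons rather than all neurons. Genes of the male reproductive tract did not match a head: over 12 testis genes the summed signal was 6962 (WT control) and 60.7 (mutant), with 117 (rescue control) and 13473 (neuronal rescue). Bacillus transcripts added before labelling had a geometric mean signal over 12 probe sets of 77.3 (WT control) and 76.8 (mutant), with 351 (rescue control) and 261 (neuronal rescue). Whether the arrays were processed in pairs is not stated in the labels.

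The mutant and the WT control differ by label in TORC. They also differ in the testis genes, with summed signals of 60.7 and 6962, so loss of TORC and tissue content cannot be told apart. None of the 8 release genes was called, against 15.7% of the 10192 genes above the floor on at least 1 array and 5.62% of those above it on all 4. Their log2 ratios ran from -0.33 (Snap25) to 0.49 (unc-13), with a median of 0.01. The median was 0.00 over the 10192 genes and 0.07 over the 7493 above the floor on all arrays. Of the release genes 4 lay above 0 and 4 below it, and 7 of 8 lay within the 0.35 spread between probe sets. The neuronal rescue and the rescue control differ by label in TORC put back into neurons. Their testis sums differed too, at 13473 and 117, so the same limit holds. Again none was called, against 16.8% of all genes and 3.76% of those above the floor on all arrays. Here 6 of 8 lay below 0, with a range from -0.57 (VGlut) to 0.43 (Snap25) and a median of -0.28, beside -0.03 over the 10192 genes and -0.14 over the 7493. This direction depends on the scaling: with the arrays centred on the pan-neuronal genes, 7 of 8 lay above 0 and the median was 0.24 or 0.28 by how the centre was taken, while the median of all genes rose to 0.46 or 0.49. At the deposited scaling 3 of the 8 lay within the probe set spread of 0.35, and this count too depends on the scaling.

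**Figure D1:**
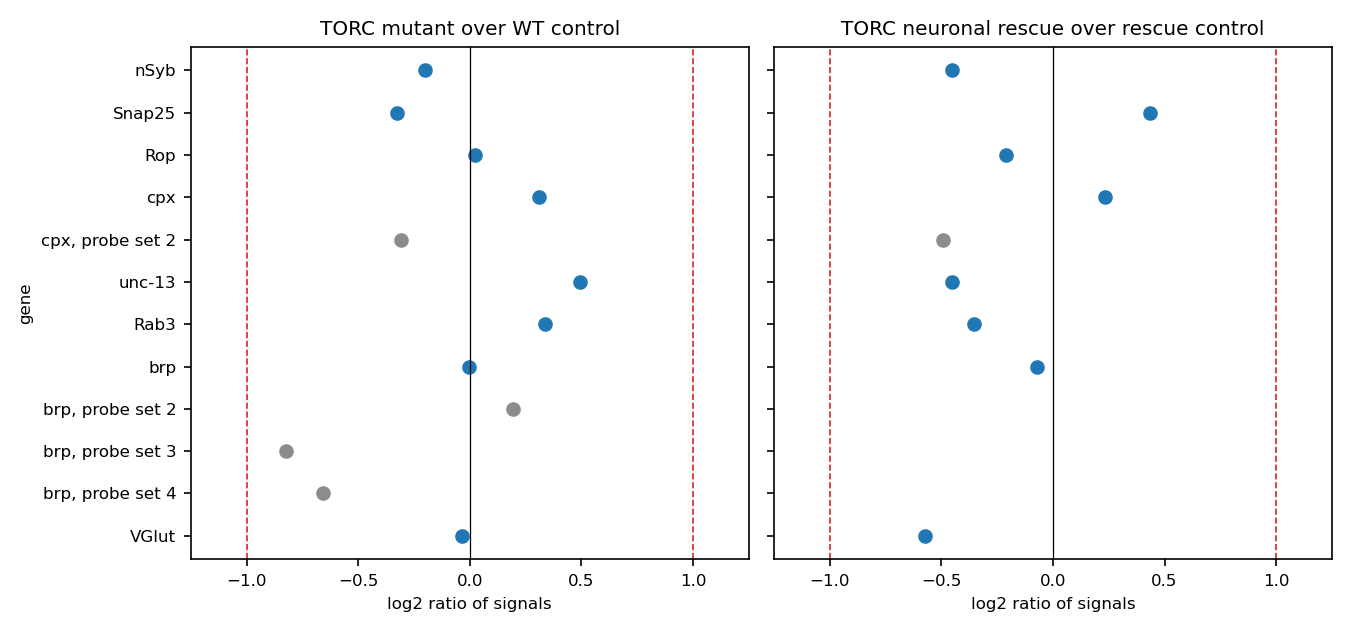
Log2 ratio of signals (x axis) for each release gene (y axis), in the mutant over the WT control (left) and the neuronal rescue over the rescue control (right). Blue points are the brightest probe set of a gene, grey points are its other probe sets, and pairs with both signals at the floor are not drawn. Dashed lines mark 2-fold. All points lie inside them; in the right panel Snap25 (0.43) and the brightest cpx probe set (0.23) are the points above 0.

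The SNARE genes nSyb and Snap25 varied over the arrays about as much as a typical gene, with a highest signal 1.53-fold and 1.45-fold the lowest, beside a median of 1.45-fold over genes above the floor on all arrays. nSyb encodes neuronal synaptobrevin, the vesicle SNARE. Its signal was 898 (WT control) and 781 (mutant), with 803 (rescue control) and 588 (neuronal rescue). The neuronal rescue was the low array, 1.37-fold lower than the rescue control and 1.53-fold lower than the WT control, and the other arrays lay close together. Snap25 encodes the SNAP-25 that pairs with syntaxin at the plasma membrane, and it had 3664, 2922, 2521 and 3406 in the same order. It was highest in the WT control and lowest in the rescue control, and was the release gene with the largest ratio above 0 in the neuronal rescue over the rescue control (1.35-fold).

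Rop, the fly Sec1/Munc18 protein that binds syntaxin and is required for fusion, was the steadiest of the 8. Its signal was 855 (WT control) and 870 (mutant), with 856 (rescue control) and 740 (neuronal rescue). The highest was 1.18-fold the lowest, where the median was 1.57-fold over the 8 genes. The neuronal rescue was the low array and the others were almost level.

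cpx encodes complexin, which binds the assembled SNARE bundle and restrains spontaneous fusion. Its brighter probe set had 5137 (WT control) and 6379 (mutant), with 3960 (rescue control) and 4659 (neuronal rescue). Its other probe set had 1620, 1308, 1184 and 841. By the brighter, both rescue arrays lay below both others, as they did by the dimmer. The main ratios did not match: the mutant over the WT control was 0.31 on the log2 scale by the brighter and -0.31 by the dimmer, and the neuronal rescue over the rescue control was 0.23 and -0.49. These pairs are 0.62 and 0.73 apart, against a robust SD of 0.49 for such differences over genes with 2 probe sets. Which transcripts each probe set reads is not given in the sources used here, and no direction can be taken for cpx.

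unc-13 encodes the priming factor that makes docked vesicles ready to fuse. Its signal was 1273 (WT control) and 1794 (mutant), with 1456 (rescue control) and 1064 (neuronal rescue). It had the highest ratio of the 8 in the mutant over the WT control, 1.41-fold, and was 1.37-fold lower in the neuronal rescue than in the rescue control. Rab3, the vesicle small GTPase that links vesicles to the active zone, followed the same order of arrays with 1375, 1740, 1484 and 1161. It was 1.26-fold higher in the mutant than in its WT control and 1.28-fold lower in the neuronal rescue than in the rescue control. For both genes the mutant was the highest array and the neuronal rescue the lowest, and neither came to 2-fold in any of the 6 pairings of arrays.

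brp encodes Bruchpilot, the ELKS-related scaffold of the fly active zone that clusters calcium channels and vesicles. Its brightest probe set had 89.2 (WT control) and 89.0 (mutant), with 51.6 (rescue control) and 49.1 (neuronal rescue). A second had 41.3, 47.3, 11.9 and 10.5, with both rescue arrays below the floor. The remaining probe sets had 25.3, 14.3, 9.4 and 12.3, and 27.3, 17.3, 2.6 and 0.5. In all 4 probe sets both rescue arrays lay below both others, but in all except the brightest both rescue signals were below the floor. In the third the mutant, at 14.3, was barely above the floor, so its order of arrays carries little weight. The brightest was 1.73-fold lower in the rescue control than in the WT control and 1.81-fold lower in the neuronal rescue than in the mutant, short of a call. The second was at least 2.98-fold and at least 3.42-fold lower in the same comparisons. Within the main comparisons the brightest probe set gave ratios of 0.00 and -0.07 on the log2 scale.

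VGlut encodes the vesicular glutamate transporter, which fills vesicles with glutamate and marks glutamatergic neurons, motor neurons among them. It was the release gene that differed most. Its signal was 212 (WT control) and 207 (mutant), with 92.1 (rescue control) and 61.9 (neuronal rescue). Both rescue arrays were low, and the mutant matched the WT control. VGlut was 2.30-fold lower in the rescue control than in the WT control, 3.42-fold lower in the neuronal rescue than in the WT control and 3.34-fold lower in the neuronal rescue than in the mutant. It was 2.25-fold higher in the mutant than in the rescue control, and 1.49-fold lower in the neuronal rescue than in the rescue control. Its other probe set had 6.2, 3.5, 9.9 and 1.0, below the floor on all arrays, so the difference rests on 1 probe set. Averaged with that floored probe set, VGlut was not called in any pairing.

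**Figure D2:**
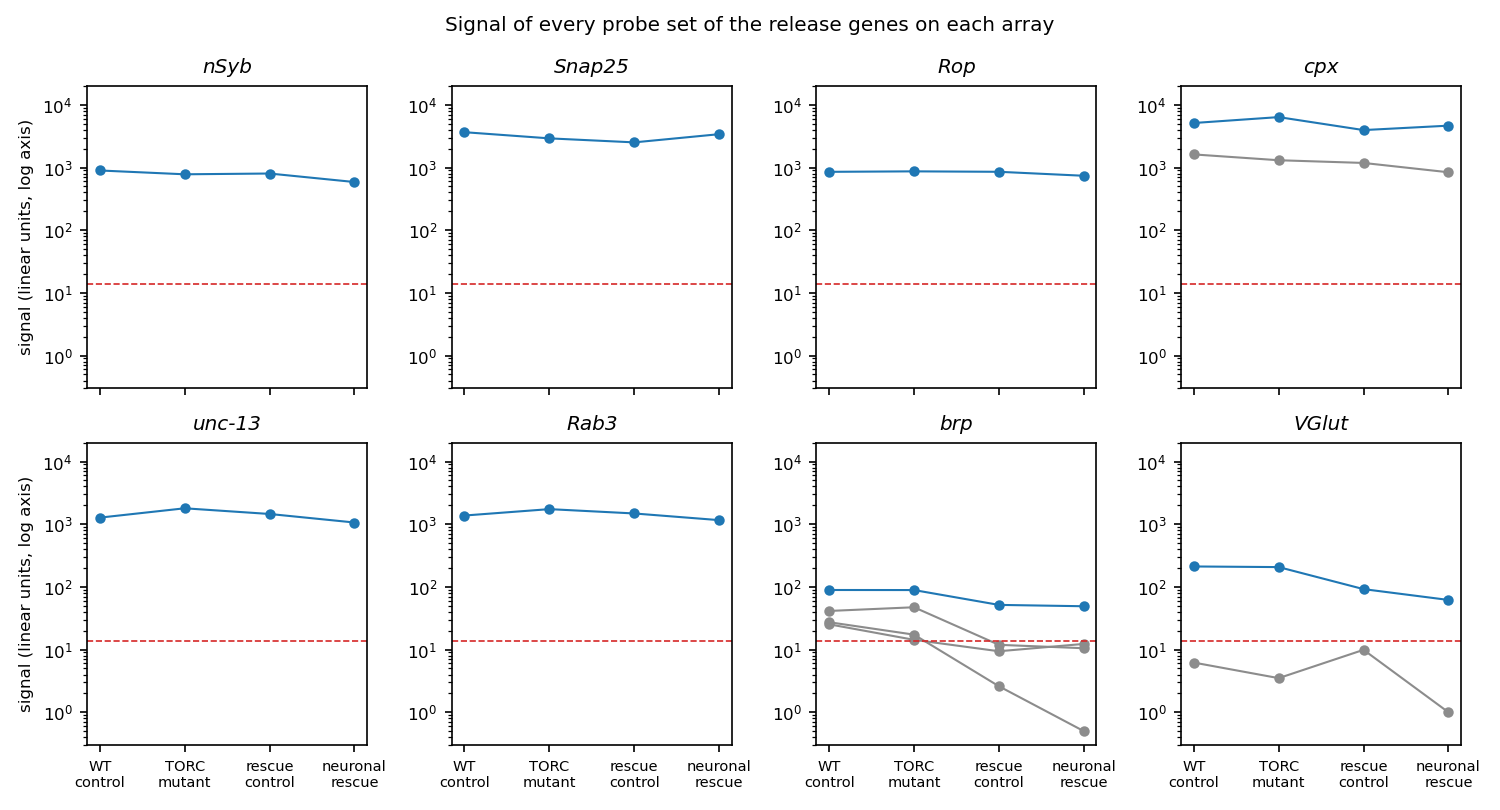
Signal of every probe set (y axis, linear units on a log axis) on each of the 4 arrays (x axis), with a panel for each release gene. The blue line is the brightest probe set, grey lines are the others, and the dashed line is the floor of 13.85. Most lines are nearly flat, while VGlut steps down from 207 in the mutant to 92.1 in the rescue control. All 4 lines of brp are lower on the rescue arrays, and all but the brightest lie below the floor there.

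VGlut was the only release gene called, by the brightest probe set, in the pairings that join a rescue array with an array of the other pair. The second brp probe set, with both rescue signals at the floor, also passed 2-fold in these 4 pairings. The background was 0.952% of genes called higher in the mutant than in the rescue control, 3.27% called lower in the neuronal rescue than in the WT control, 13.2% lower in the rescue control than in the WT control and 3.49% lower in the neuronal rescue than in the mutant. Over the genes above the floor on all arrays, as the release genes were, these shares were 1.03%, 3%, 3.12% and 4.23% in the same order. The calls depend on the scaling. With the arrays centred on the median level of the pan-neuronal genes VGlut was called in none of the 4, at 0.62, -0.72, -0.67 and -0.67 on the log2 scale in the order just given. The call made was Snap25, higher in the neuronal rescue than in the mutant (1.29). In that pairing 5184 of all genes were then called higher, and the median of all genes was 0.99. With centring on each pan-neuronal gene's own deviations VGlut was called in 2 of the 4, at -1.16 and -1.14 for the neuronal rescue and the rescue control over the WT control. Snap25 was again called in the neuronal rescue over the mutant (1.01), where 3323 of all genes were called higher. These 4 pairings share arrays with each other and with the main comparisons. The member medians were 0.27 for the mutant over the rescue control, -0.25 for the neuronal rescue over the WT control, -0.27 for the rescue control over the WT control and -0.52 for the neuronal rescue over the mutant. The medians over the 10192 genes were 0.00 in each. Over the 7493 genes above the floor on all arrays they were 0.012, -0.059, 0.065 and -0.133 in the same order. In the neuronal rescue over the WT control all 8 genes lay below 0, and in the neuronal rescue over the mutant 7 of 8 did, with Snap25 above. Centred on the median level of the pan-neuronal genes, 7 of 8 lay above 0 in both, with VGlut below and medians of 0.80 and 0.56. Centred on deviations, 6 of 8 did, with medians of 0.37 and 0.27. The median of all genes moved as well, to 1.02 and 0.99 by the first centring and 0.60 and 0.72 by the second. Relative to it the member median stayed below 0, at -0.215 and -0.432 by the first and -0.238 and -0.454 by the second.

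Both rescue arrays lay below both others for brp, cpx and VGlut, 3 of 8 genes, beside 15.7% of the 10192 genes and 19.9% of those above the floor on all arrays. This pattern was looked for after the values were seen. The lowest signal fell on a rescue array for 8 of 8 genes, beside 41.4% of all genes and 53.1% of those above the floor on all arrays. In 6 of 8 it fell on the neuronal rescue, beside 28.5% and 37.5%. Centred on the pan-neuronal genes instead, 2 or 3 of 8 had their lowest signal on a rescue array, by how the centre was taken. No share of all genes is given here for that count. Such centring raised the median of all genes in the neuronal rescue over the WT control to 1.02 or 0.60. VGlut kept both rescue arrays below both others, a pattern then held by 0.436% or 2.4% of all genes. The Bacillus controls divide the arrays the same way as VGlut and brp, with 351 and 261 on the rescue arrays against 77.3 and 76.8, and the labels divide them this way too, so processing and genotype cannot be told apart. The testis genes, bright in the WT control and the neuronal rescue, divide them differently.

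By the brightest probe set, no other vesicular transporter gene had both rescue arrays below both others, as VGlut did. VAChT, the acetylcholine transporter, had 556 (WT control) and 644 (mutant), with 606 (rescue control) and 668 (neuronal rescue). VGAT, which loads GABA, had 174, 235, 190 and 120 in the same order. VAChT was thus highest in the neuronal rescue, and VGAT was low in the neuronal rescue but not in the rescue control. Vmat, the monoamine transporter, had 288, 194, 251 and 128 by its brightest probe set. The portabella transporter gene prt had 44.1, 44.0, 44.9 and 26.0. By these probe sets both were lowest in the neuronal rescue, at log2 ratios of -0.96 for Vmat and -0.79 for prt over the rescue control, just short of a call. Other probe sets of Vmat above the floor gave -1.01 and -0.82 in that comparison, and 0.18 and 0.85 in the mutant over the WT control where the brightest gave -0.57. The first of these had 246.9 (WT control) and 280.5 (mutant), with 216.3 (rescue control) and 107.3 (neuronal rescue), so by it Vmat too had both rescue arrays low.

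**Figure D3:**
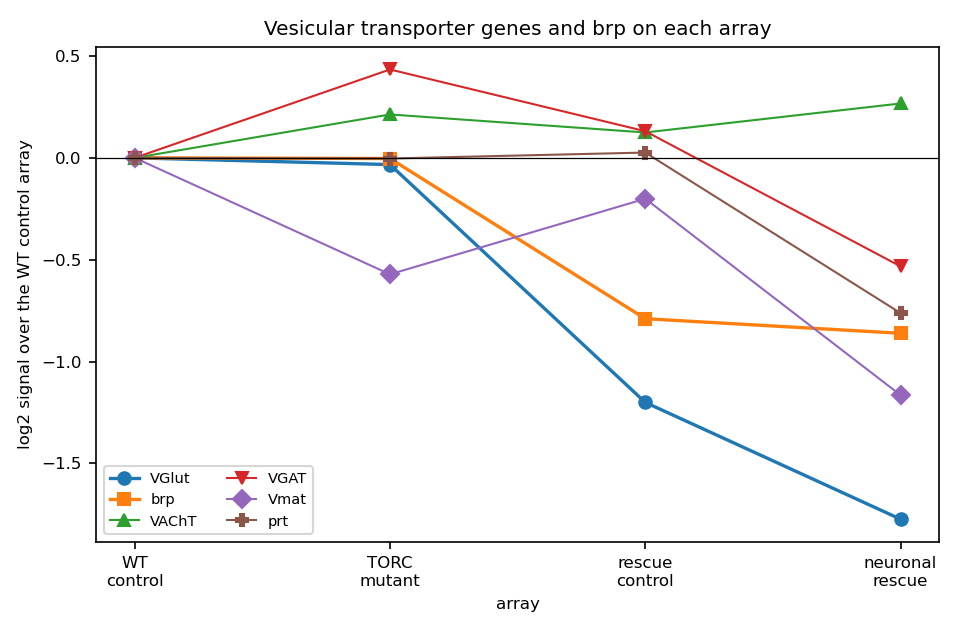
Log2 signal over the WT control array (y axis) on each of the 4 arrays (x axis) for the vesicular transporter genes VGlut, VAChT, VGAT, Vmat and prt and for brp, by the brightest probe set. On the rescue control and neuronal rescue arrays VGlut lies at -1.20 and -1.77 and brp at -0.79 and -0.86, while VAChT stays above 0.

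The wider synaptic machinery was described from 4 lists of genes. In the main comparisons the medians were 0.00 and -0.03 over the 10192 genes, and 0.07 and -0.14 over the 7493. Of 13 measured genes of the SNARE cycle and its regulators, none was called in the mutant over the WT control, where the median was 0.40. In the neuronal rescue over the rescue control 1 was lower, beside 1.77% of all genes, and the median was -0.18. That gene was Cadps, a factor for dense-core vesicle release, with 388 (WT control) and 729 (mutant), with 670 (rescue control) and 273 (neuronal rescue). Another Cadps probe set, with 396, 508, 288 and 223, gave -0.37 against -1.30 for the brighter, so the call rests on 1 of its probe sets. In the mutant over the WT control the largest log2 ratios were 0.91 for Cadps and 0.78 for stac, a gene of the Unc13 family. Snap24, a relative of Snap25, had 193, 174, 210 and 180, and Syb, the synaptobrevin of cells outside the synapse, had 511, 680, 696 and 670. A dimmer Syb probe set had 140.0, 416.1, 331.6 and 271.8, which gives a log2 ratio of 1.57 in the mutant over the WT control where the brightest gave 0.41. In neither gene were both rescue arrays low.

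Of 15 measured active zone and calcium channel genes, 1 was called in the mutant over the WT control, higher, beside 2.04% of all genes, and the list median was 0.16. This was Nlg2, a neuroligin that acts in synapse growth, with 233 (WT control) and 497 (mutant), with 423 (rescue control) and 246 (neuronal rescue). A dimmer Nlg2 probe set gave -0.18 where the brightest gave 1.09. None was called in the neuronal rescue over the rescue control (median -0.23), where the largest ratios were 0.83 for cac, the calcium channel of release, and -0.80 for Rim, a scaffold that binds it. Rim also had probe sets at 0.59 and 0.06. In this list 8 of 15 genes had both rescue arrays below both others, beside the 15.7% and 19.9% given above. The count sets no minimum difference, and Rab3-GEF entered it with 275.7 (rescue control) against 275.9 (WT control). It was taken at the deposited scaling only, and the share of all genes fell to 0.436% or 2.4% under pan-neuronal centring. Among the 8 were the active zone gene Rbp (RIM-binding protein), at 97.7, 116, 53.8 and 46.1, and the scaffold gene CASK, at 1391, 1403, 845 and 665. Rbp and CASK were named after their values were seen. Both follow the profile of brp, with the mutant close to the WT control and both rescue arrays low.

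No gene of the other synaptic lists was called in either main comparison by its brightest probe set. The 11 measured vesicle protein and transporter genes had medians of 0.16 and -0.22 in the main comparisons, the mutant given first. Their largest ratios in the mutant over the WT control were -0.57 for Vmat and 0.49 for Vha100-1, a subunit of the proton pump that energises loading. The 16 endocytosis genes, which recover vesicle membrane after fusion, had medians of 0.25 and -0.20. Among them lap, a clathrin adaptor, gave 0.57 and Eps-15, an endocytic scaffold, 0.50 in the mutant over the WT control. The dynamin gene shi gave -0.72 and the scaffold gene Dap160 -0.54 in the neuronal rescue over the rescue control. Other probe sets of shi gave 0.27 and -0.01 there. A dimmer probe set of the endocytosis gene nwk gave -1.01 there, past 2-fold, where its brightest gave 0.095. That dimmer probe set had 294.9 (WT control) and 398.8 (mutant), with 201.5 (rescue control) and 100 (neuronal rescue). Both rescue arrays lay below both others for 5 of 13 SNARE cycle genes, 2 of 11 vesicle protein genes and 5 of 16 endocytosis genes. The background was 15.7% of all genes and 19.9% of those above the floor on all arrays. These counts too set no minimum difference and were taken at the deposited scaling only.

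**Figure D4:**
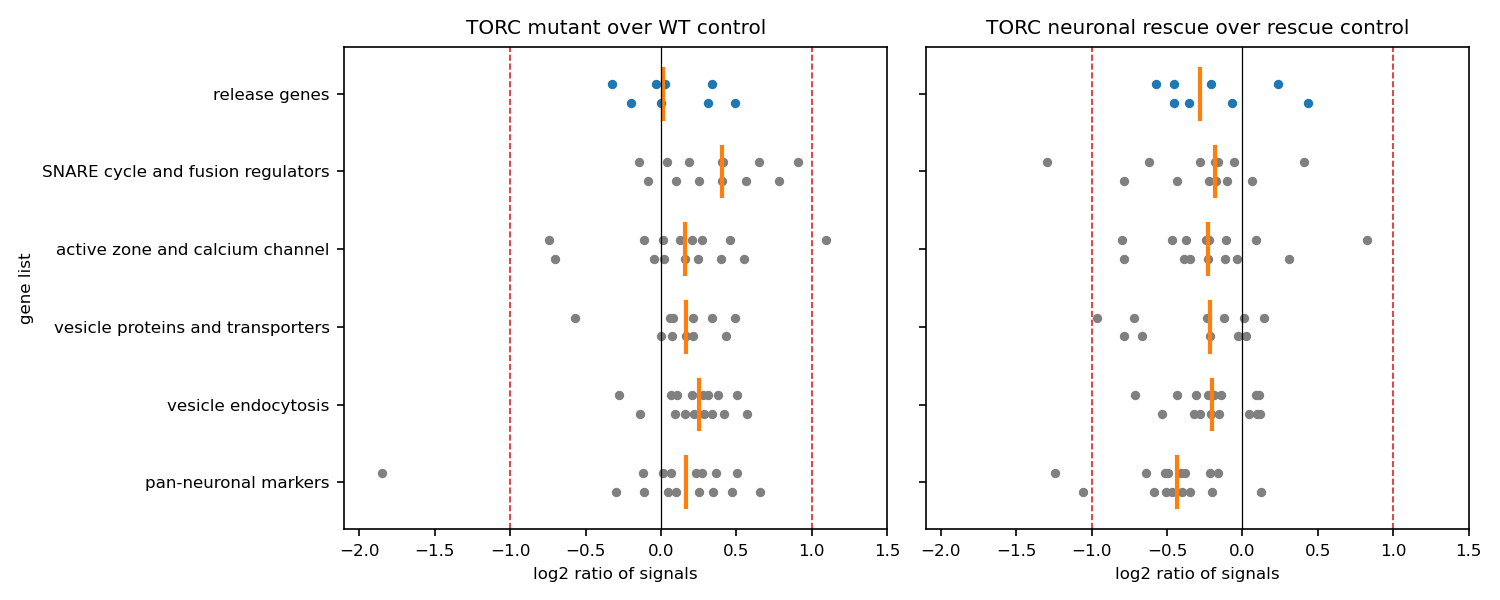
Log2 ratio of signals (x axis) for each measured gene of the release genes, 4 other synaptic lists and the pan-neuronal markers (y axis), in the mutant over the WT control (left) and the neuronal rescue over the rescue control (right). Each point is a gene by its brightest probe set, orange bars are list medians and dashed lines mark 2-fold. In the right panel, at the deposited scaling, every list median lies below 0, from -0.18 for the SNARE cycle genes to -0.44 for the pan-neuronal markers, with -0.28 for the release genes.

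The median of the pan-neuronal genes lay below 0 in the neuronal rescue over the rescue control, as that of the release genes did, and their part in the result was not tested. Of 16 such genes that encode no release protein, 2 were lower there and none higher, beside 1.77% of all genes lower, with a median of -0.44 against -0.28 for the release genes. The 2 were the potassium channel gene Shab (-1.24), whose other probe set gave 0.34, and the sodium channel gene para (-1.06). In the mutant over the WT control 13.6% of all genes were lower, and 3.15% of those above the floor on all arrays. Of the 16 genes 1 was lower there and none higher, with a median of 0.17. This was the ankyrin gene Ank2 (-1.85), with 3514 (WT control) and 977 (mutant), with 2457 (rescue control) and 2675 (neuronal rescue), whose next probe sets gave -0.09 and 0.18. Summed over the list, the signal was 20584 (WT control) and 20713 (mutant), with 19206 (rescue control) and 16099 (neuronal rescue). Without Ank2 the sums were 17070, 19737, 16749 and 13424, highest in the mutant and lowest in the neuronal rescue. For 14 of 16 the neuronal rescue was the lowest array, beside 28.5% of all genes and 37.5% of those above the floor on all arrays. For 8 of 16 both rescue arrays lay below both others, beside 15.7% and 19.9%. Both counts set no minimum difference and were taken at the deposited scaling only. The neuronal RNA-binding protein gene elav had 291, 237, 185 and 142 in the same order, and the microtubule protein gene futsch had 676, 682, 431 and 325. These examples were low on both rescue arrays, but the list median in the rescue control over the WT control was only -0.075. By the brightest probe set ChAT, Gad1, Nrg, Rbp9, Sh, Shab and tau were higher in the rescue control, and the other genes of the list were lower. In the neuronal rescue over the rescue control the median was -0.13 over 13 glial genes, -0.18 over 11 photoreceptor genes and -0.66 over 10 muscle genes.

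Over the 4 arrays, the median profile of the 8 release genes, each centred on its own mean log2 signal, was 0.15 (WT control) and 0.33 (mutant), with -0.13 (rescue control) and -0.33 (neuronal rescue). The closest of 7485 other genes, by the root mean square difference from this profile, were spz at 0.012, CG31038 at 0.015, CG3726 at 0.022, CG31098 at 0.024 and Tmtc2 at 0.025. For example, spz had 190 (WT control) and 212 (mutant), with 154 (rescue control) and 135 (neuronal rescue). A profile over 4 arrays is short, and 229 genes lay within 0.1 of it.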

How the data were processed

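The deposited table holds 1 linear intensity per probe set and array for 4 arrays, which the authors made with MAS5 (per the submitters' processing notes), version and genome build not given in the sources used here. The values themselves have a 2% trimmed mean of 150 on each array, so they had been scaled before deposit. They were rescaled to an equal trimmed mean, raised to a floor of 13.85 (the median over arrays of the 40th percentile of probe sets that are not controls) and log2 transformed.

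Leaving out 183 control probe sets of 18952, 13646 had 1 symbol in the platform annotation, 402 had several and 4721 had none. Entrez identifiers tied 13543 of the first to RefSeq genes (Release 6), and 0 symbols changed. The brightest probe set by mean log2 signal stood for a gene. Coordinates are not printed, since the build of the array is not named.

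Calls were differences of 2-fold or more between single arrays, with no test, over 6 pairings. Genes above the floor on at least 1 array were the background. The ratio calculation was tested on simulated data. Named genes were all members, Crtc, members of the 4 synaptic lists called in a main comparison or otherwise the 2 with the largest ratio in it, and the 5 genes closest in profile. Marker genes are examples of their level, and Shab, para and Ank2 were named after their values were seen. The members and lists were chosen with earlier results of these data known. All 11 lists are 4 synaptic lists and markers of neurons, glia, photoreceptors, testis, accessory gland, gut and muscle. Over the last 3 the median log2 ratios were -5.34, -5.15 and -0.98 in the mutant over the WT control and 5.60, 0.00 and -0.66 in the neuronal rescue over the rescue control. Python 3.11.15, numpy 2.4.6, pandas 2.3.3 and matplotlib 3.10.9 were used.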

Additional observations from a re-analysis of the deposited data

How the results depend on the processing

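Alternatives covered quantile normalization, centring on the median gene, centring on the pan-neuronal list, no rescaling, floors at percentiles 20 and 60, no floor, a mean of a gene's probe sets, and calls at 1.5-fold and 3-fold. Centring on the deviations of each pan-neuronal gene from its own mean was added after seeing the data, because the list's median level depends on which gene lies in the middle. In both main comparisons no release gene was called under any of these. Under the planned pan-neuronal centring the member median was 0.24 for the neuronal rescue over the rescue control, -0.29 for the mutant over the rescue control, 0.80 for the neuronal rescue over the WT control, 0.26 for the rescue control over the WT control and 0.56 for the neuronal rescue over the mutant. Under the added centring it was 0.28, 0.37 and 0.27 for the neuronal rescue over the rescue control, the WT control and the mutant. These centrings move the median of all genes as well, to 1.02 and 0.60 in the neuronal rescue over the WT control and 0.99 and 0.72 over the mutant. In the neuronal rescue over the rescue control they move it to 0.46 and 0.49. Relative to that median the member median ran from -0.27 to -0.16 in that comparison over 10 settings. It ran from -0.02 to 0.06 in the mutant over the WT control. A rescaling moves both medians alike except at the floor, so settings that only rescale an array could not change these values much. Over the 7493 genes above the floor on all arrays, the medians at the deposited scaling were -0.14 and 0.07 in the same comparisons. In the other pairings, where 1 gene was called, quantile normalization called 2 for the neuronal rescue over the WT control, brp with VGlut, and the same 2 over the mutant. Of all genes it called 390 and 1019 lower in these comparisons. The planned centring called 0 in the mutant over the rescue control, 0 in the rescue control over the WT control, 0 in the neuronal rescue over the WT control, but 1 in the neuronal rescue over the mutant, which was Snap25, higher. It called 5184 of all genes higher in that last pairing. The added centring called 0 in the mutant over the rescue control and again 1, Snap25, in the neuronal rescue over the mutant, where it called 3323 of all genes higher. The mean over probe sets, which adds the VGlut probe set at the floor, called 0 in the mutant over the rescue control, and also 0 in the neuronal rescue over the mutant. In the pairings of each rescue array with the WT control it called brp, at -1.05 (rescue control) and -1.07 (neuronal rescue), in place of VGlut, at -0.60 and -0.89. Of all genes it called 1312 and 298 lower in the same order. A 1.5-fold threshold called 3 in the mutant over the rescue control, 3 in the neuronal rescue over the WT control, 3 in the neuronal rescue over the mutant, with 2 for the rescue control over the WT control, and a 3-fold threshold called 0 in the mutant over the rescue control and 0 in the rescue control over the WT control. The share of all genes called at these thresholds is not given here, so the counts have no background to be read against. No paired analysis was possible because each group is 1 array. Signal limits brp and VGlut, whose dimmer probe sets lie at the floor on some or all arrays.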
